A study of Homo sapiens with 3 samples.

Results

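Solute carrier (SLC) genes encode membrane proteins that move amino acids, sugars, metal ions, nucleotides and other small molecules across the plasma membrane and the membranes of mitochondria, the Golgi apparatus, lysosomes and endosomes. Their symbols give a family number, a letter and a member number, so that SLC25A5 is a member of the SLC25 family of mitochondrial carriers. Unlike the ion pumps and ABC transporters, most of them spend no ATP themselves, and exchange one solute for another or follow an ion gradient. The genes were taken here by symbol: every gene name that starts with SLC and a digit, without those that end in P and a number, which marks pseudogenes. This gave 137 of 9904 gene names, in 38 families, and 582 of 40843 clusters. A cluster is a stretch of RNA in which C-to-U editing passed the statistical filter of FLARE, the authors' program for finding regions with more editing than the background rate.

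All 3 samples belong to 1 condition, and each is a biological replicate of HEK293T cells, a human embryonic kidney line, in the lenti-X form HEK293XT with a WT genotype. The cells expressed a fusion of the RNA-binding protein RBFOX2 and the cytidine deaminase APOBEC1 that doxycycline induces. The labels give a time of 72 h and a transient transfection, while the growth protocol describes stable lines. RBFOX2 is a splicing regulator that also binds mature transcripts, and in this assay, STAMP, the deaminase leaves C-to-U changes near the places the fusion visits. There is no second condition and no sample with APOBEC1 alone here, so the values carry no background measured in controls, and they compare SLC genes with the whole table and replicates with each other. Whether the cells were kidney cells could not be checked against marker genes, because clusters report edited RNA and not the level of a transcript.

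SLC genes held 212, 233 and 137 clusters in replicates 1, 2 and 3 (194 ± 50.5, SD, n = 3), out of 14295, 15181 and 11367. This is 1.48%, 1.53% and 1.21% of all clusters (1.41% ± 0.177), with Wilson 95% intervals of 1.30% to 1.69%, 1.35% to 1.74% and 1.02% to 1.42%. Replicate 3 had the fewest clusters of SLC genes and of all genes, and its interval for the share overlaps the other two. A total of 97, 101 and 80 SLC genes had a cluster (92.7 ± 11.2). The reads in SLC clusters numbered 12773, 14665 and 8412, of which 562, 624 and 381 were edited. These reads are not the depth of the libraries, because regions that did not pass the filter are not listed. The intervals cover counting error alone and treat each cluster as an independent draw, although a gene can hold several. Several reads can also stem from 1 molecule, and no identifiers mark them. A table of RefSeq genes for the assembly GRCh38.p14 has 386 protein-coding symbols that fit the same rule, and 135 of them had a cluster in at least 1 replicate. For the other 251, the clusters do not tell a transcript that was not edited from one that was too shallow or not present. Names were matched as written, so a gene whose symbol has changed can also be among the 251. The share of all protein-coding symbols with a cluster was not counted, so the 135 of 386 do not set SLC genes apart. SLC35E2, which had a cluster, is an older symbol listed for SLC35E2A and SLC35E2B.

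Most SLC clusters lay in thinly covered RNA. The median read depth of an SLC cluster was 16.3, 20.1 and 14.6 reads in replicates 1, 2 and 3 (17.0 ± 2.83), against 25.1, 24.7 and 21.1 reads over all clusters (23.6 ± 2.21), and the ranges do not overlap. A depth of at least 50 was reached by 14.6%, 15.9% and 13.9% of SLC clusters (14.8% ± 1.02) and by 29.1%, 27.9% and 24.6% of all clusters (27.2% ± 2.37). Clusters that rest on 1 edited read made up 39.6%, 35.2% and 35.0% of SLC clusters (36.6% ± 2.60) and 28.0%, 31.1% and 33.0% of all clusters (30.7% ± 2.55). In length they were alike, with a median of 45 bases in both sets, and both had a median of 3 edited bases and 2 edited reads per cluster. The share of C bases in the sequence of a cluster had a median of 20%, 20% and 21.3% in SLC genes and of 17.8%, 18.7% and 20% over all clusters.

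The edit fraction, which is the number of edited bases over the C bases that reads cover in a cluster, had a median of 2.11%, 1.75% and 2.30% in SLC clusters (2.06% ± 0.277). Over all clusters it was 1.64%, 1.65% and 1.80% (1.70% ± 0.0909). Within each replicate the SLC median was the higher one, but the ranges over replicates overlap. The edit fraction was lower where depth was higher: across clusters (not replicates of a condition) Spearman's rho between depth and edit fraction was -0.757, -0.745 and -0.766 in the 212, 233 and 137 SLC clusters, and -0.781, -0.774 and -0.791 over all clusters of the same libraries. Depth and edit fraction share the covered bases of the same reads, and the authors' filter sets a different background rate by depth class, so the relation is a description.

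In most depth classes the SLC median was the lower one. It was lower in each replicate below a depth of 10, in both classes from 20 to 40 and at 50 or more. It was higher in each replicate from 10 to 20, and mixed from 40 to 50. The ranges over replicates do not overlap in both classes from 20 to 40 and at 50 or more. No test of these differences was made. Below a depth of 10, their median edit fraction was 4.40% ± 0.599 (134 clusters), against 5.03% ± 0.134 over all clusters. From 10 to 20 it was 2.47% ± 0.0734 (197 clusters) against 2.32% ± 0.0821, and from 20 to 30 it was 1.5% ± 0.0293 (98 clusters) against 1.65% ± 0.0419. The SLC value was thus higher in the second of these classes and lower in the others. It was 1.26% ± 0.148 against 1.39% ± 0.00561 from 30 to 40, and 1.40% ± 0.484 against 1.23% ± 0.0246 from 40 to 50, where the SLC genes had 43 and 23 clusters. At a depth of at least 50, the median was 0.667%, 0.755% and 0.666% in SLC clusters (0.696% ± 0.0511, 87 clusters) and 0.774%, 0.794% and 0.783% over all clusters (0.784% ± 0.00975). When edited bases were pooled over all SLC clusters of a replicate, the edit fraction was 1.02%, 1.08% and 1.08%, beside 0.939%, 0.934% and 0.997% for the whole table.

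**Figure D1:**
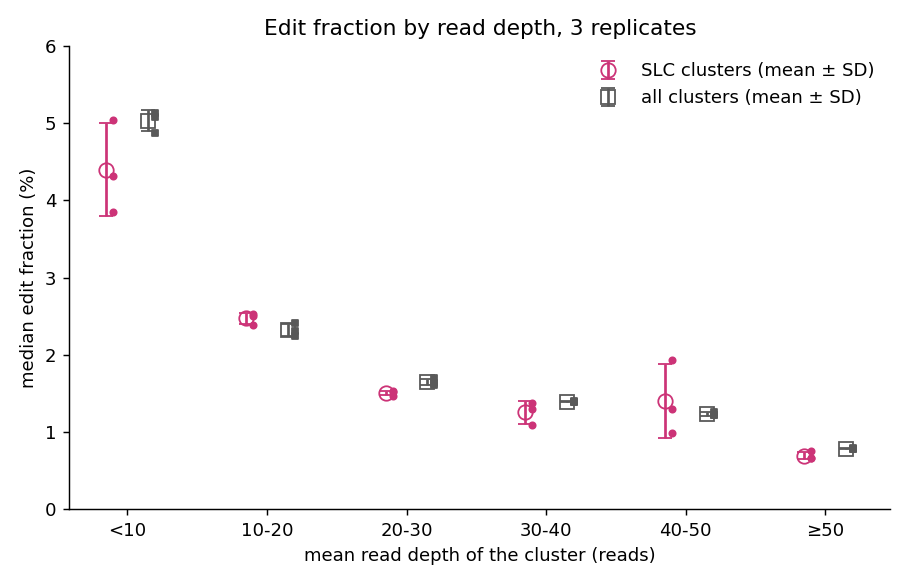
Median edit fraction (percent of covered C bases) of clusters in 6 classes of mean read depth, for SLC clusters (circles) and all clusters (squares). Large open markers with bars are the mean ± SD of 3 replicates and small filled points are the replicates. Both sets fall from over 4% below a depth of 10 to under 1% at 50 or more, and the SLC bars are widest below 10 and from 40 to 50.

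A few genes held a large part of the edited bases. SLC clusters held 977, 1197 and 695 edited bases, which is 0.965%, 1.07% and 0.901% of all edited bases (0.980% ± 0.0868). SLC25A5, SLC3A2 and SLC25A3 together held 20.2%, 18.1% and 30.6% of them, and the 15 genes with the most edited bases held 46.8%, 46.1% and 46.6%. The SLC clusters with a depth of at least 50 held 36.0%, 34.0% and 38.1% of the SLC edited bases, while over all genes such clusters held 61.2%, 61.4% and 56.6%. Edited bases outnumbered edited reads. There were 1.74, 1.92 and 1.82 edited bases per edited read in SLC clusters (1.83 ± 0.0900), against 1.59, 1.67 and 1.66 over all clusters (1.64 ± 0.0411). These are ratios of totals and not counts on single reads. A cluster of SLC30A1 in replicate 1 has 2 edited bases but 3 edited reads, so the counts do not always match.

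**Figure D2:**
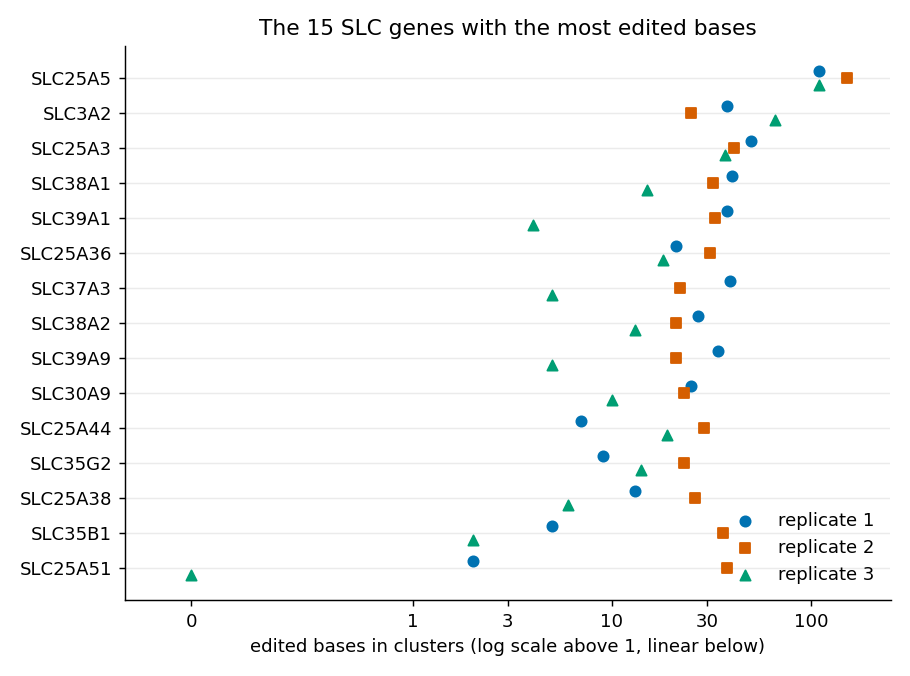
Edited bases in the clusters of the 15 SLC genes with the most of them, with 1 point for each replicate, on an axis that is linear from 0 to 1 and logarithmic above. SLC25A5 stands above the rest in each replicate with 109 to 151 edited bases, and the genes below it spread over replicates, as SLC39A1 does from 4 to 38. SLC25A51 runs from 0 to 38, but its clusters also carry 9 other gene names.

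The mitochondrial carriers of the SLC25 family formed the largest group, with 29 genes, 141 clusters (49, 60 and 32 in replicates 1, 2 and 3) and 37.6% of the SLC edited bases. They exchange metabolites such as ADP, ATP, phosphate and amino acids across the inner mitochondrial membrane. Of the 29, 14 had a cluster in each replicate, beside 36.5% of all SLC genes and 37.9% of all gene names. The same 2 shares are the background for such counts in the other groups below. The sums include SLC25A51, whose 4 clusters also carry 9 other gene names. SLC25A5, an ADP/ATP exchanger of the inner membrane, held 109, 151 and 110 edited bases, which is 12.9% of the SLC total. Its 7 clusters all lay in exon 8, between bases 118604837 and 118605239 of chromosome X (hg19, plus strand). Exon and intron numbers here and below are the labels deposited with the clusters. They need not be the exon numbers of a transcript. The deepest SLC cluster of the series was among them, at 1237 reads in replicate 2, where 50 of 11499 covered C bases were edited (0.435%). SLC25A5 has close relatives, SLC25A4 and SLC25A6, and related sequences elsewhere in the genome, and how the authors assigned reads that fit several places is not given in the sources used here, so its values are uncertain to that extent. SLC25A6 had 1 cluster, in replicate 3, with 6 edited bases.

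SLC25A3, the phosphate carrier of the inner membrane, had 50, 41 and 37 edited bases in 7 clusters. The cluster in exon 2 (bases 98991644 to 98991703 of chromosome 12, plus strand) was found with the same bounds in replicates 2 and 3, at 0.567% and 1.01%. In replicate 1 exon 0 held a cluster with 8 edited bases and 1 edited read of 173, and its edit fraction of 5.00% rests on that read. Only 160 C bases were covered over its 21 C positions, although its mean depth was 166 reads. Its C bases were thus covered by far fewer reads than its depth gives. SLC25A36, a carrier of pyrimidine nucleotides, had the most clusters of the family, 4, 7 and 4, with 21, 31 and 18 edited bases. It had 11 of its 15 clusters in exon 20, spread from base 140695298 to base 140698507 of chromosome 3 (plus strand), and no place that was found in each replicate. SLC25A44, which takes branched-chain amino acids into mitochondria, had 7, 29 and 19 edited bases in 9 clusters of exon 6 at 9 separate places. SLC25A38, a glycine carrier needed for heme synthesis, had 13, 26 and 6 edited bases.

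The carriers of nucleotide sugars and other solutes of the Golgi apparatus and endoplasmic reticulum, which feed the glycosylation and sulfation of proteins, comprised 23 genes with 39, 49 and 29 clusters. They held 15.7% of the SLC edited bases, and 9 genes had a cluster in each replicate. SLC37A3, a relative of the glucose 6-phosphate carriers, had 39, 22 and 5 edited bases in 12 clusters, of which 9 lay in exon 6. SLC35G2, whose substrate is not settled, had 9, 23 and 14, in clusters of exon 6 alone. SLC35B1, which brings ATP into the endoplasmic reticulum, had 5, 36 and 2. Its replicate 2 value came from 5 clusters in exons 0, 2, 4 and 8, of which 1 in exon 2 held 21 edited bases on 3 reads. SLC35B3, a carrier of the sulfate donor PAPS, had 16, 0 and 17 edited bases in 5, 0 and 6 clusters, so replicates 1 and 3 lay together and replicate 2 listed none.

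The metal ion carriers, chiefly the zinc importers of the SLC39 family and the zinc exporters of the SLC30 family, comprised 19 genes with 49, 40 and 19 clusters and 15.3% of the edited bases. A cluster in each replicate was found for 11 of the 19 genes. SLC39A1, a zinc importer of the cell surface, had 38, 33 and 4 edited bases, all in exon 0. SLC39A9 had 34, 21 and 5, and SLC30A9, a zinc transporter of mitochondria, had 25, 23 and 10. In these genes replicate 3 lay below the other two. SLC39A11 held 1 of the highest edit fractions of the SLC genes: at overlapping places in exon 0 (bases 70642149 to 70642238 of chromosome 17, minus strand), the value was 14.3% in replicate 1 and 25% in replicate 2, on 2 of 16 and 3 of 12 reads.

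The amino acid carriers comprised 18 genes with 34, 34 and 23 clusters and 15.3% of the edited bases, and 7 of them had a cluster in each replicate. SLC3A2 encodes the heavy chain of the heterodimeric amino acid transporters, which anchors a catalytic light chain in the membrane, and held 38, 25 and 66 edited bases in 4, 2 and 6 clusters. The light chains gave less: SLC7A5, the usual partner for large neutral amino acids, had 6, 8 and 0 edited bases, and SLC7A6 had 4, 13 and 2. SLC38A1, a sodium-coupled glutamine carrier, had more clusters than any other SLC gene (5, 9 and 3) and 40, 32 and 15 edited bases. Of its 17 clusters, 12 lay in exon 0. Its neighbour SLC38A2 on the same strand of chromosome 12, a carrier of small neutral amino acids, had 27, 21 and 13 edited bases in 11 clusters at 11 separate places, with no overlap between replicates. SLC1A5, another glutamine carrier, had 1 cluster, in replicate 2, with 8 edited bases in 6 of 300 reads.

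The remaining groups were sparser. The carriers of vitamins, nucleosides, lipids, choline, drugs and peptides comprised 19 genes with 13, 17 and 15 clusters and 7.08% of the edited bases, and 3 of them had a cluster in each replicate. SLC19A2, a thiamine carrier, had 0, 0 and 35 edited bases, and SLC44A5, a relative of the choline carriers, had 35, 0 and 5. The carriers of sodium, chloride, bicarbonate, protons and phosphate comprised 15 genes with 15, 18 and 9 clusters and 4.18% of the edited bases. SLC20A1, a phosphate carrier, was 1 of the 3 genes of this group found in each replicate, with 13, 9 and 7 edited bases. The sugar and lactate carriers comprised 11 genes with 9, 11 and 7 clusters and 3.87% of the edited bases. Of these, the lactate carrier SLC16A1 alone had a cluster in each replicate (7, 6 and 7 edited bases), and the glucose carrier SLC2A1 had 0, 3 and 3. The SLC19A2 value shows how few reads can set a gene's place in the order: its cluster with 27 edited bases rested on 3 of 42 reads.

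**Figure D3:**
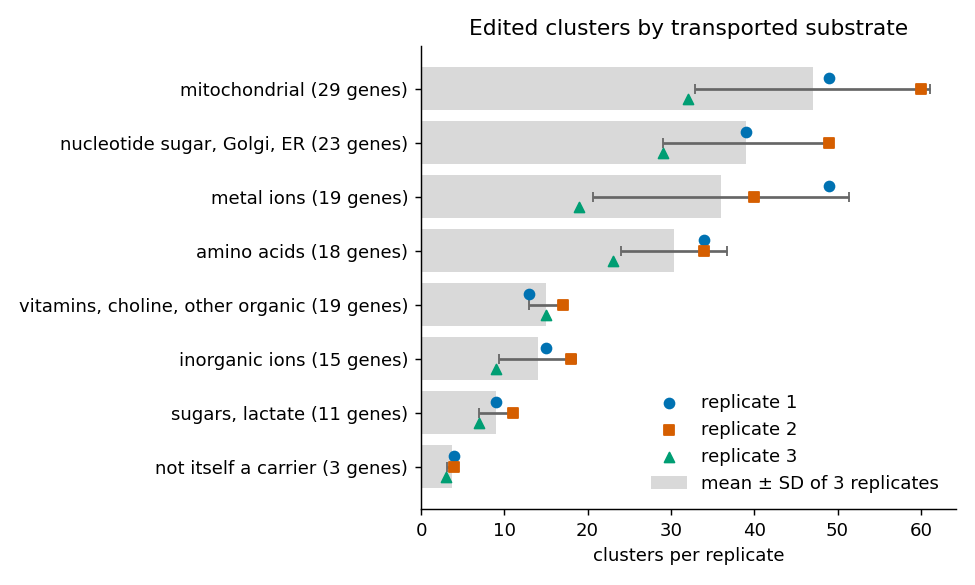
Clusters per replicate in SLC genes grouped by what their family carries; grey bars are means, dark lines the SD of 3 replicates and points the replicates. The mitochondrial carriers had 32 to 60 clusters and the sugar and lactate carriers 7 to 11, and the SDs of the 4 largest groups overlap.

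In edit fraction, the 4 largest groups overlapped over replicates. The median edit fraction was 1.69%, 1.73% and 1.91% in the mitochondrial carriers and 1.81%, 1.38% and 1.84% in the amino acid carriers. It was 2.30%, 1.77% and 2.92% in the carriers of the Golgi apparatus and endoplasmic reticulum, and 2.65%, 1.54% and 2.22% in the metal ion carriers. Within each replicate, the carriers of the Golgi apparatus and endoplasmic reticulum lay above the mitochondrial and the amino acid carriers. The metal ion carriers lay above the amino acid carriers in each replicate. The other pairs of groups changed order between replicates. The ranges of these 4 groups over replicates overlap, and depth was not held equal between them. No test of a difference between groups of genes was made.

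The symbol rule also takes in 3 genes that are not carriers themselves. SLC9A3R1 encodes a scaffold protein that binds a sodium/proton exchanger, SLC4A1AP encodes a protein named for its binding to the anion exchanger SLC4A1, and SLC7A6OS lies on the strand opposite SLC7A6. They had 11 clusters with 28 edited bases (0.976% of the SLC total). SLC4A1AP had 1 cluster and 2 edited bases in each replicate, SLC7A6OS had 6, 4 and 6 edited bases, and SLC9A3R1 had 0, 3 and 3.

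In minus-strand genes, clusters gathered at the 3′ end in SLC genes and in the whole table alike. The deposited exon labels rise with coordinate and need not be transcript exon numbers. Exon 0 of a gene on the minus strand is thus the one nearest its 3′ end. Of the 278 SLC clusters in exons of minus-strand genes that carry 1 gene name, 176 lay in exon 0: 68.9%, 59.1% and 61.5% in replicates 1, 2 and 3 (63.2% ± 5.12). Over all such clusters the share was 64.7%, 59.8% and 61.7% (62.0% ± 2.47), and the difference is smaller than the spread between replicates. On the plus strand, where exon 0 is nearest the 5′ end, it was 2 of 100, 0 of 108 and 2 of 63 SLC clusters (1.72% ± 1.61) and 3.92%, 4.06% and 4.37% of all clusters (4.12% ± 0.228), and the SLC share was the lower one in each replicate. Of 65 minus-strand SLC genes with such a cluster, 50 had one in exon 0, SLC38A1, SLC38A2, SLC39A1 and SLC25A17 among them. This count by gene was not made over all genes.

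Intronic clusters numbered 4, 9 and 2 in SLC genes (15 in all, in 8 genes). This is 1.89%, 3.86% and 1.46% of SLC clusters (2.40% ± 1.28), beside 2.17%, 2.33% and 1.70% of all clusters (2.06% ± 0.327), a difference smaller than the spread between replicates. Of the 15 in SLC genes, 13 carry the name of another gene as well. The pair without one belongs to SLC25A28, an iron carrier of mitochondria. SLC25A51, which carries NAD+ into mitochondria, had 1, 3 and 0 clusters. All 4 were intronic and shared with 9 other gene names, so its 2, 38 and 0 edited bases cannot be assigned to it. In 1 of them, in replicate 2, 12 of 48 covered C bases were edited (25%), in 3 of 15 reads. SLC35F1, a member of a family of nucleotide sugar carriers, had 3 intronic clusters, and 1 place in intron 2 (from base 118320612 of chromosome 6, plus strand) was found in replicates 1 and 2, at 0.659% and 1.69%. SLC25A29, a carrier of basic amino acids, had the same 22 bases in an intron edited in replicates 1 and 2, at 5.88% in each, on 1 of 15 and 1 of 17 reads. Each value is 1 edited base of 17 covered C bases. The others were 1 cluster each in SLC20A2, SLC35E1, SLC35E2 and SLC35F5. SLC35E2 and SLC35E2B are near-identical neighbours, and reads of the 2 genes may have been split between them.

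The recurrence of the clusters was followed by joining into loci those of different replicates that have 1 or more bases of a strand in common. The 582 SLC clusters formed 506 loci, of which 446 were found in 1 replicate, 47 (9.29%) in 2 and 13 (2.57%) in 3. Over all genes, 3940 (11.9%) of 33244 loci were found in 2 replicates and 1586 (4.77%) in 3. Of the SLC clusters of replicates 1, 2 and 3, 6.60%, 6.01% and 9.49% lay in a locus found in each replicate (7.37% ± 1.86), against 12.1%, 11.4% and 15.1% of all clusters (12.9% ± 2.00), and these ranges do not overlap. Among clusters with a depth of at least 50, the share was 28.1% ± 7.86 in SLC genes and 29.7% ± 4.09 over all clusters, a difference smaller than the spread between replicates. Below 50 it was 3.82% ± 1.10 against 6.60% ± 1.99. Among clusters with 5 or more edited reads it was 39.97% ± 7.69 against 51.4% ± 5.53, and among those with 1 edited read 3.01% ± 1.59 against 3.07% ± 0.632.

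**Figure D4:**
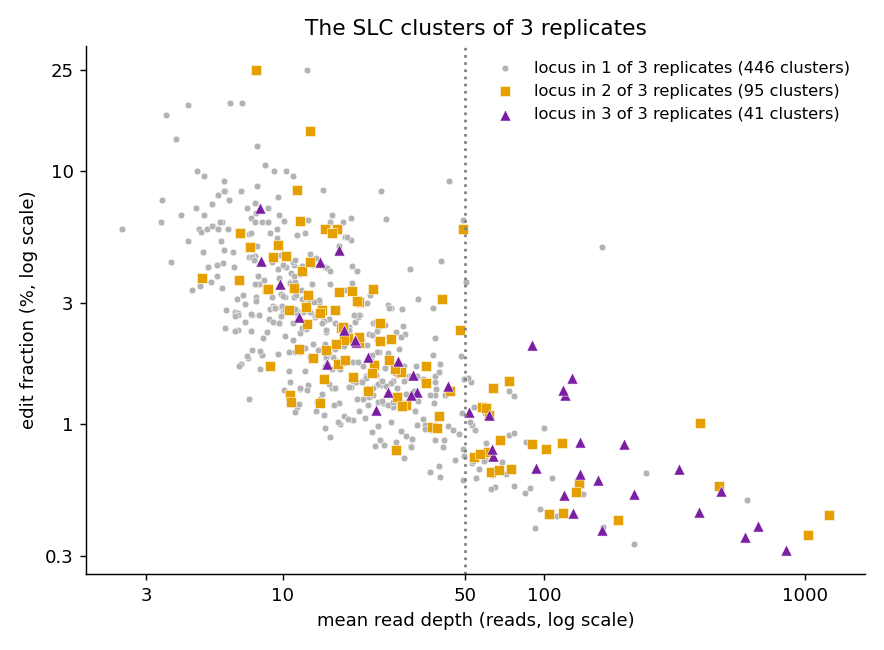
Mean read depth and edit fraction (both on log axes) of the SLC clusters of all replicates, marked by the number of replicates in which their locus was found (446 clusters in 1, 95 in 2 and 41 in 3); the dotted line is a depth of 50. Edit fraction falls with depth, and the clusters found in each replicate are commoner right of the line.

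A gene can recur through different places, so recurrence was also counted by gene. A cluster in each replicate was found for 50 of 137 SLC genes (36.5%), in 2 replicates for 41 (29.9%) and in 1 for 46 (33.6%), beside 37.9%, 28.4% and 33.7% of all 9904 gene names. Of the 50 SLC genes, 11 (22%) had a locus found in each replicate, beside 1274 (33.9%) of the 3754 such genes in the whole table. In 18 (36%) of the 50, SLC38A2 and SLC25A44 among them, no clusters of any pair of replicates overlapped, beside 1005 (26.8%) of the 3754. No test of these differences was made. The number of clusters per gene over the 3 replicates had a median of 3 both in SLC genes and in all genes.

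The 13 loci found in each replicate belong to 11 genes, and 12 of them are described here. The 3 deepest lay in SLC25A5, SLC25A3 and exon 12 of SLC3A2. In exon 8 of SLC25A5 (bases 118604940 to 118605239 of chromosome X) the edit fraction was 0.322%, 0.406% and 0.541% (0.423% ± 0.111), with 84 of 3087, 78 of 2678 and 55 of 1486 reads edited. In exon 8 of SLC25A3 (bases 98995312 to 98995461 of chromosome 12, plus strand) it was 0.665%, 0.449% and 0.527% (0.547% ± 0.110), and the edited reads were 29 of 844, 14 of 742 and 4 of 394. With exon 12 of SLC3A2, these loci combined the highest mean depths with the lowest mean edit fractions of the 13.

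SLC3A2 was 1 of 2 genes with a pair of such loci. In exon 12 (bases 62649441 to 62649485 of chromosome 11, plus strand) the edit fraction was 0.598%, 0.381% and 0.525% (0.501% ± 0.110), and in exon 28 (bases 62656224 to 62656283) it was 1.52%, 1.37% and 2.04% (1.65% ± 0.355). The values of exon 28 lay above those of exon 12 in each replicate and the ranges do not overlap, at depths of 129, 119 and 89.8 reads in exon 28 and 161, 167 and 120 reads in exon 12. Exon 28 was cut to the same 60 bases in each replicate, with 13 of 180, 14 of 161 and 13 of 123 reads edited. Replicate 3 listed 2 more clusters in exon 28, at 0.392% and 0.336%.

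SLC25A17 was the other gene with a pair. Although a member of the mitochondrial family, it encodes a carrier of the peroxisome. Both loci lay in exon 0 on the minus strand of chromosome 22, at 1.56%, 1.77% and 1.83% (1.72% ± 0.142) from base 41166520 to 41166564, and at 1.42%, 1.11% and 1.34% (1.29% ± 0.157) from base 41166310 to 41166429. Their spread is small, although the first rests on 1, 1 and 2 edited reads. SLC25A25, a calcium-regulated carrier of ATP-Mg and phosphate, had a locus in exon 25 (bases 130870749 to 130870853 of chromosome 9, plus strand) at 4.85%, 4.41% and 1.73% (3.66% ± 1.69), with replicate 3 below the other two.

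Among the metal ion carriers, the locus of SLC39A1 lay in exon 0 (bases 153932281 to 153932325 of chromosome 1, minus strand) and had 0.636%, 0.849% and 0.444% (0.643% ± 0.203), with 4 of 187, 5 of 179 and 4 of 168 reads edited. In exon 39 of SLC30A9 (bases 42089405 to 42089539 of chromosome 4, plus strand) the value was 0.667%, 1.33% and 1.08% (1.03% ± 0.337). The largest mean and the largest spread of the 13 loci were those of SLC39A9 in exon 18 (bases 69928906 to 69929100 of chromosome 14, plus strand), at 2.65%, 1.30% and 7.14% (3.70% ± 3.06). Its replicate 3 value is 1 edited base of 14 covered, on 1 of 9 reads.

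The last 2 loci described belong to different groups. In exon 0 of SLC38A1 (bases 46577132 to 46577236 of chromosome 12, minus strand) the edit fraction was 1.30%, 0.797% and 0.749% (0.949% ± 0.307), on 9, 4 and 8 edited reads. In exon 15 of SLC35F1 (bases 118638492 to 118638596 of chromosome 6, plus strand) it was 2.10%, 4.38% and 3.57% (3.35% ± 1.15), on 2 edited reads in each replicate.

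**Figure D5:**
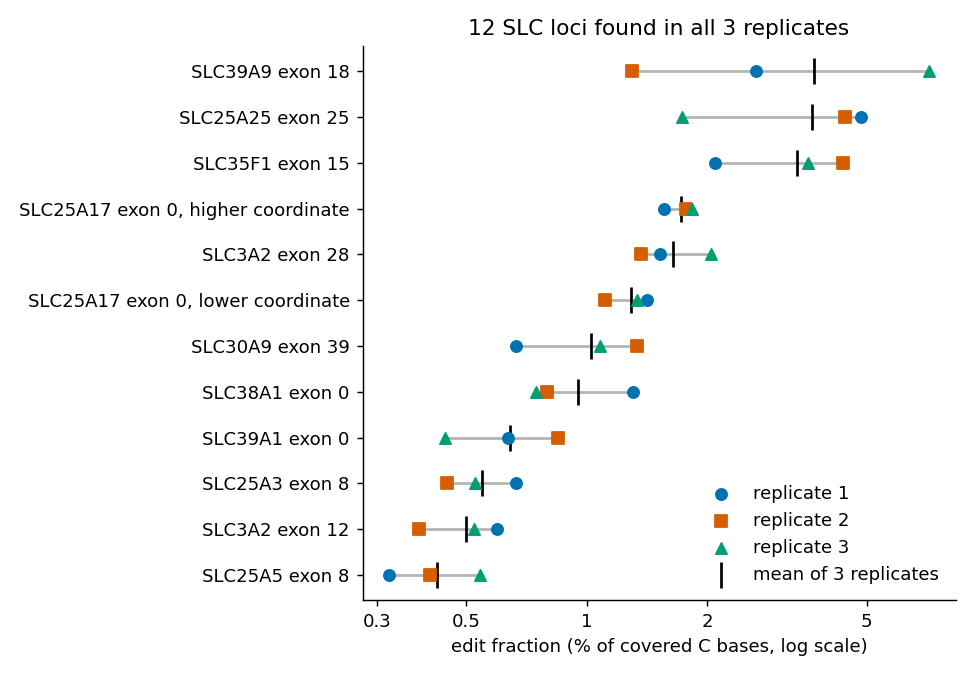
Edit fraction (percent of covered C bases, log axis) at 12 of the 13 SLC loci found in each of 3 replicates, ordered by their mean; points are replicates, grey lines their range and black ticks their mean. The means run from 0.423% in SLC25A5 to 3.70% in SLC39A9, where replicate 3 stands at 7.14%, and the ranges of neighbours overlap except between SLC25A17 (higher coordinate) and SLC35F1.

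In this order, from SLC25A5 up to SLC39A9, the ranges of neighbouring loci among these 12 overlap, so neighbours did not differ beyond their spread, except that SLC35F1 lay above the locus of SLC25A17 at the higher coordinate in each replicate. The 4 loci with the largest means of the 12, in SLC39A9, SLC25A25, SLC35F1 and SLC25A17 (higher coordinate), each have a replicate with 1 or 2 edited reads. So do the SLC25A17 locus at the lower coordinate and the SLC30A9 locus, whose means are smaller.

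Whether edited reads at a place differed between libraries more than counting error allows was asked with two-sided Fisher's exact tests for each pair of replicates, at loci with the same bounds in each replicate, adjusted by Benjamini-Hochberg over 174 loci and 3 pairs. Over the whole table, an adjusted p under 0.05 was reached at 1.72% of the loci for replicates 1 and 2, at 1.15% for replicates 1 and 3 and at 1.15% for replicates 2 and 3. The SLC genes have 2 such loci, in SLC3A2 (exon 28) and SLC39A1, and none of their 6 tests passed. The smallest unadjusted p of Fisher's exact test was 0.404, for SLC3A2 in replicates 1 and 3, at 7.22% and 10.6% of reads edited; none was under 0.05. With loci that share their bounds in the pair compared, a setting added after the values were seen, the tests passed at 0.174%, 0.457% and 0.594% of loci for the same pairs over all genes. The SLC genes then have 17 tests at 13 loci, of which 0 passed by Fisher's exact test and 0 had an unadjusted p under 0.05. The smallest p, 0.238 by Fisher's exact test, was that of the creatine carrier SLC6A8 in exon 12, with 2 of 61 reads edited in replicate 2 and 5 of 49 in replicate 3. No difference was thus detected at a tested SLC locus, which does not show that the libraries are alike. The tested loci were kept because the libraries listed the same cluster there. Places with other bounds, or without a cluster in a library, could not be tested. The tests compare libraries, not conditions.

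The highest edit fractions came from shallow places. SLC clusters ranged from 0.317%, in SLC25A5 at a depth of 845 reads in replicate 1, to 25%, and the 13 clusters at 10% or more had a depth of at most 12.7. The highest after SLC25A51 and SLC39A11 were 2 clusters of the mitochondrial carrier SLC25A40 in replicate 3, at 18.5% each, and a cluster of SLC16A9 in replicate 2, at 18.2%. In 43 SLC clusters there were 5 or more edited bases per edited read. The counts of 13 and 43 were not made over all clusters, so they do not set SLC genes apart. The longest SLC clusters, of 210 bases, were those of SLC19A2 in replicate 3 and SLC25A5 in replicate 2.

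The other transport genes of the cell were taken from lists of ion pumps, ABC transporters, and anion channels and porters of mitochondria. The share of all protein-coding genes with a cluster was not counted, so the counts of listed genes do not set a list apart. Of 46 listed ion pump subunits, which use ATP to move ions, 35 had a cluster and 19 had one in each replicate, with 67, 74 and 63 clusters. Their median edit fraction was 1.48% ± 0.205 at a median depth of 33.4 ± 7.13 reads, and 13 of 143 loci (9.09%) were found in each replicate, ATP2A2 among their genes. Of 25 listed ABC transporters 12 had a cluster, 1 in each replicate, and 0 of 23 loci were found in each. Their median edit fraction was 2.76% ± 1.42 at a median depth of 16.6 ± 8.04 reads. The anion channels and porters, VDAC1 and VDAC3 among them, had 11 of 13 genes with a cluster, a median edit fraction of 0.821% ± 0.0953 at a depth of 100.4 ± 10.2 reads, and 3 of 42 loci (7.14%) in each replicate. The SLC genes, at a median depth of 17.0 reads and 2.57% of loci in each replicate, lay below the ion pumps and the anion channels and porters in both, and their depth was within the spread of that of the ABC transporters. Across the lists the median edit fraction was lower where the median depth was higher, and the part of depth in these values was not tested.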

How the data were processed

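Polyadenylated RNA of 3 replicates was sequenced and, according to the study's methods, the authors called C-to-U positions with SAILOR and clusters with FLARE in each replicate separately (windows of 30 bases, adjusted p-value threshold of 0.1, merging within 15 bases). The submitters' processing notes name STAR and hg19; versions are not given in the sources used here. Each cluster has deposited counts, unscaled, of its reads, its edited reads, its edited bases and the C bases that reads cover. The edit fraction deposited by the authors divides the third count by the last, and this was so in each of 14295, 15181 and 11367 clusters. The deposited mean depth is a coverage signal that is not scaled to library size, and the authors' score, used here in an alternative, runs from 0 to 1. In some clusters, such as 1 of SLC25A3 and 1 of SLC25A28, this depth is far above the coverage of the C bases. Shallow clusters are imprecise: 36.6% ± 2.60 of SLC clusters rest on 1 edited read.

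Counts, medians and shares per replicate were computed with Python 3.11.15 (SciPy 1.17.1, pandas 2.3.3, NumPy 2.4.6; figures by matplotlib 3.10.9), and are given as mean ± SD over 3 replicates. A cluster was counted for an SLC gene if any of its gene names fits the rule (31 clusters also carry another name). This left out 1 pseudogene symbol with 8 clusters. Of 137 symbols, 135 are current RefSeq symbols and 2 older ones. Coordinates are those of the files, counted from 1. Two-sided Fisher's exact tests compared edited reads between replicates, with Benjamini-Hochberg adjustment over all loci and pairs, and the code was tested on simulated data. As the libraries are separate replicates of 1 condition, the p-values concern the spread between them. Named genes are those with a locus in each replicate, the 15 with the most edited bases, those with intronic clusters and the symbols that are not carriers; further names in the text were chosen after their values were seen. The genes, groups and lists were chosen with earlier results of these data known. Alternatives were score and depth minimums, at least 2 edited reads, an overlap of 50%, means, pooled values, and leaving out each replicate. The values of 1 locus found in each replicate are not reported here. No sequences are shown, since a genome of the build was not used here.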

Additional observations from a re-analysis of the deposited data

How the results depend on the processing

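Results were recomputed under 133 alternative values, of which 63 leave out a replicate. Of the remaining alternatives for the main results, 39 stayed within the limits set (within 1 SD, or 1.5 times for counts) and 18 moved. With a score of at least 0.99, SLC genes had 120 clusters per replicate (194 in the main setting), a median edit fraction of 2.72% (2.06%), 27 genes in each replicate (50) and 6 loci found in each (13). At a depth of at least 50, there were 29.0 clusters and 15.7 genes per replicate, 0.766% of clusters, 0.590% of edited bases, a median of 0.696%, 7 genes in each replicate and 6 loci. With at least 2 edited reads, there were 123 clusters, 0.883% of edited bases, a median of 1.67% and 32 genes in each replicate. Each of these removes clusters by construction. Without SLC25A5 the share of edited bases was 0.851% (0.980%). The mean edit fraction was 2.87% and the pooled one 1.06%, in place of the median of 2.06%. Loci shared by the remaining replicates numbered 27 to 32 when 1 replicate was left out. In that case 2 replicates had to share a locus instead of 3. The other main results stayed within the limits set without each replicate. For means this does not show stability, because leaving out 1 of 3 values cannot move their mean by 1 SD. The 13 named loci moved with edited reads in place of edited bases, which is another quantity. Under every alternative run, 0 of the SLC loci tested differed between replicates by Fisher's exact test. Over all genes 7 of 522 tests passed, 11 with edited bases and 8 of 282 at a depth of at least 50. No pairing of samples between conditions was possible because the 3 replicates form 1 condition. Sets of genes were measured in the same replicates, and their values are given for each replicate without a paired test. Where 1 edited read sets a value, depth limits it.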
